A study of Mus musculus with 6 samples.

Results

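The network described here consists of 9 genes of the WNK kinase pathway in kidney cells of Trf1+/+ and Trf1flox/flox mice. They are *Wnk1* and *Wnk4* (WNK kinases), *Stk39* and *Oxsr1* (the kinases SPAK and OSR1), *Cab39* (their activator MO25), *Cul3* and *Klhl3* (a ubiquitin ligase), and *Sgk1* and *Nedd4l* (a kinase and the ubiquitin ligase NEDD4-2 that it phosphorylates). These 9 of the 12125 genes listed were chosen on the data, because *Wnk1* and *Cul3* were both lower in all Trf1flox/flox libraries, so the differences of these genes are given as descriptions with no test. All 9 have a row, and all 9 passed the filter on low values (10 or more normalized counts in 3 or more libraries), as did 9966 genes in all.

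Mice of both groups carried Cre-ERT2 under the *Col1a2* promoter, which drives the recombinase in fibroblasts, and a Katushka fluorescent protein (KFP) reporter that Cre switches on. All received tamoxifen by intraperitoneal injection 3 times a week for 8 weeks, starting at 6 to 8 weeks of age, and both sexes were used. The *Terf1* gene, which encodes the telomere protein TRF1, was intact in the 3 Trf1+/+ mice and flanked by lox sites in the 3 Trf1flox/flox mice. Each library held the RNA of 500 kidney cells of 1 mouse, sorted with the markers CD29, a surface integrin, and KFP and labelled as fibroblasts. The study's supplement lists cells positive for CD29, for KFP or for both as isolated. Its methods do not state which of these were sequenced. The replicate numbers were given here in the order of the samples, only name the libraries and pair no mice.

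WNK kinases sense chloride and potassium in the distal nephron. They phosphorylate SPAK and OSR1, which MO25 assists, and these kinases in turn phosphorylate and activate the sodium-chloride cotransporter NCC (*Slc12a3*) of the distal convoluted tubule and the related NKCC cotransporters. KLHL3 binds WNK kinases and brings them to the CUL3 ligase for ubiquitylation and degradation. Mutations in the human genes of WNK1, WNK4, KLHL3 and CUL3 cause familial hyperkalaemic hypertension, in which NCC is overactive. SGK1 is induced by aldosterone and inhibits NEDD4-2, which removes the epithelial sodium channel ENaC from the membrane.

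The libraries held 10263382 to 12248797 reads on the listed genes, and a single read was worth 0.689 to 1.09 normalized counts. The library labelled Trf1+/+ replicate 1 stood apart, with 8967 genes above 0 against 9733 to 11593 in the other 5 libraries and a median normalized count of 13.4 against 118 to 148. *Terf1* had 0.891, 252.7 and 234.5 normalized counts across the labelled Trf1+/+ replicates 1, 2 and 3, and 110.0, 7.65 and 12.4 across Trf1flox/flox replicates 1, 2 and 3. The first of these values is 1 read and goes against its label, in the library with the fewest genes above 0. The log2 fold changes of the network genes, and some other results, are therefore also given without that library. Trf1flox/flox replicate 1, at 110.0, lay above the rest of its group, and the *Terf1* groups overlapped. Counts per gene do not separate the floxed exons from the rest of *Terf1*. Of 13 fibroblast markers 3 had a row (*Col1a2*, *Dcn* and *Gsn*), and *Col1a2*, whose promoter drives the Cre, was at 0 to 1.78 normalized counts. *Dcn* was at 0 to 97.3 and *Gsn*, which other cell types also express, at 79.0 to 1671, and the 3 markers together summed to 81.6 to 1673 per library. *Col1a1*, *Pdgfra* and *Pdgfrb* were not analysed here. The 12 proximal tubule markers, in contrast, summed to 35999 to 163004 normalized counts per library, and the 5 distal convoluted tubule markers to 17265 to 62168. Most fibroblast markers on the list thus gave no value, while tubule markers were abundant, and the cells are called sorted kidney cells below.

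The sequences before the starts of *Wnk1*, *Cul3* and *Klhl3* are shown because these were the network genes whose counts were lower in every Trf1flox/flox library than in every Trf1+/+ library. They come from RefSeq on the GRCm38.p6 build, in which 8 of the 9 genes were matched, and each is the 150 bases before the start, written 5′ to 3′ on the gene's strand. The windows are chr6:120038656-120038805 for *Wnk1*, chr1:80340691-80340840 for *Cul3* and chr13:58113648-58113797 for *Klhl3*, all on the minus strand. Capitals mark a GC box, GGGCGG or its reverse complement CCGCCC.
Wnk1: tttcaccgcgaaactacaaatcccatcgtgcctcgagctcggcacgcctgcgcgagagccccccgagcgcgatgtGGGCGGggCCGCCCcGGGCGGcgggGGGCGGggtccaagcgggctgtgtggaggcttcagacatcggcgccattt
Cul3: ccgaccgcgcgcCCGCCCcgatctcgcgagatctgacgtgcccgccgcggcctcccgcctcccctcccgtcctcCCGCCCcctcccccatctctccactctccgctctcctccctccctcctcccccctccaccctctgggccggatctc
Klhl3: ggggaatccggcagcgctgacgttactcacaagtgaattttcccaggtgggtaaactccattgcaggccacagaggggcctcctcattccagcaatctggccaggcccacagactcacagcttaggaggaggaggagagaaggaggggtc
In the 250 bases before the start, *Wnk1* held 4 GC boxes, *Cul3* 3 and *Klhl3* 0, and at least 1 was found in 32.7% of all 32851 promoters of this length. None of the windows held TATAAA (found in 12.4% of all promoters) or CCAAT (33.8%) on either strand. The motifs searched do not overlap each other in these windows. The *Wnk1* and *Cul3* windows held 26 and 23 CpG dinucleotides at a GC content of 64% and 73.2%, and the *Klhl3* window held 6 at 53.2%. The median over all promoters was 6 CpG at 52.4%. *Klhl3* was thus near the median, and *Wnk1* and *Cul3* lay above it in both measures. So did *Wnk4* (17 CpG, 70%), *Stk39* (43, 82.4%), *Oxsr1* (21, 62.4%) and *Cab39* (27, 64.8%). The groups of these genes overlapped, and their windows held GC boxes too. The windows of the several *Sgk1* starts lay on both sides of the median. A relation between these sequences and the counts was not tested.

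*Wnk1* was the most abundant gene of the network in Trf1+/+ cells. It lies on chromosome 6 from 119923969 to 120038672 on the minus strand of GRCm38 (ENSMUSG00000045962). It had 11721, 16991 and 14346 normalized counts in Trf1+/+ replicates 1, 2 and 3, and 6376, 3855 and 7397 in Trf1flox/flox replicates 1, 2 and 3. The groups did not overlap, and the lowest Trf1+/+ library stood well above the highest Trf1flox/flox library. The means were 14353 ± 2635 and 5876 ± 1823 (SD, n = 3 each), a log2 fold change of -1.32 (standard error 0.40) on the log2 scale of the normalized count plus 1. Standard errors here are from limma, which moves each gene's variance towards that of tested genes of like level. Without the library labelled Trf1+/+ replicate 1 the log2 fold change was -1.46. The gene has 26 annotated transcripts, and counts per gene do not separate the long kinase from the short kidney-specific form, which lacks most of the kinase domain.

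*Wnk4*, the other WNK kinase of the distal nephron, did not show this separation. It lies on chromosome 11 from 101260567 to 101277409 on the plus strand (ENSMUSG00000035112). It had 1171, 2025 and 991 normalized counts in Trf1+/+ libraries, and 906, 1247 and 1123 in Trf1flox/flox libraries. The groups overlapped, with all Trf1flox/flox values except the lowest inside the Trf1+/+ range. The log2 fold change was -0.30 (standard error 0.53), smaller than its error, and it was 0.0066 without Trf1+/+ replicate 2. *Wnk1* as a percent of *Wnk4* within the same library was 1001%, 839% and 1447% in Trf1+/+ cells and 704%, 309% and 659% in Trf1flox/flox cells. This ratio does not depend on how libraries were scaled, and its groups did not overlap. *Wnk1* was used to choose the network, so the ratio is a description and no separate evidence of a difference. Exons of *Wnk4* overlap those of the antisense gene *Gm11615*, and the libraries were not stranded, so reads of both cannot be told apart there.

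*Cul3* and *Klhl3* encode the ubiquitin ligase that removes WNK kinases. *Cul3*, the scaffold (chromosome 1, 80264923 to 80340480, minus strand, ENSMUSG00000004364), had 2928, 1129 and 619 normalized counts in Trf1+/+ libraries. It had 421, 74.3 and 329 in Trf1flox/flox libraries. The groups did not overlap, but the Trf1+/+ libraries were widely spread, and the highest was the library whose *Terf1* count goes against its label. The means were 1558 ± 1213 and 274.7 ± 179.6 (SD, n = 3 each), and the log2 fold change was -2.54 (standard error 0.88), or -1.93 without that library.

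*Klhl3*, the adaptor that binds WNK kinases (chromosome 13, 58000228 to 58113592, minus strand, ENSMUSG00000014164), had 1532, 1820 and 1698 normalized counts in Trf1+/+ libraries. It had 1037, 886 and 783 in Trf1flox/flox libraries. Libraries of the same group lay close together, and the groups did not overlap. The means were 1683 ± 145 and 902 ± 128 (SD, n = 3 each), and the log2 fold change was -0.91 (standard error 0.50), or -0.97 without the library labelled Trf1+/+ replicate 1. The direction of *Klhl3* was not independent of the scaling, since the log2 fold change was -0.13 after scaling to *Slc12a3* and 0.15 after scaling to the sum of the distal convoluted tubule markers. Its SD of log2 values within groups was 0.169, and 0.1003% of the tested genes had a smaller one. The standard error of 0.50 is larger than this spread alone would give, because limma also draws on other genes. That of *Wnk1* was 0.397 (3.33% smaller) and that of *Cul3* was 1.24 (33.6% smaller), against a median of 2.17 over all tested genes. *Klhl3* and *Wnk1* were therefore among the genes that varied least between mice of a group, which is easier for abundant genes, and *Cul3* was not. *Wnk1* and *Cul3* were chosen for being lower in all Trf1flox/flox libraries, which favours a small spread, so their SDs are descriptions.

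SPAK, OSR1 and MO25 carry the signal from WNK kinases to the cotransporters, and the groups overlapped for each of their genes. *Stk39* (SPAK; chromosome 2, 68210445 to 68472268, minus strand) had 188, 616 and 203 normalized counts in Trf1+/+ libraries, and 650, 249.2 and 375 in Trf1flox/flox libraries. *Oxsr1* (OSR1; chromosome 9, 119238432 to 119322427, minus strand) had 286, 328 and 44.3 in Trf1+/+ libraries, and 89.4, 22.9 and 96.5 in Trf1flox/flox libraries. For *Oxsr1* a single Trf1+/+ library, replicate 3, lay among the Trf1flox/flox values, while for *Stk39* each group held low and high libraries. *Cab39* (MO25; chromosome 1, 85793441 to 85851576, plus strand) had 1433, 327 and 861 in Trf1+/+ libraries, and 317, 1120 and 593 in Trf1flox/flox libraries, so both groups covered nearly the same range. The log2 fold changes were 0.45 (standard error 0.88) for *Stk39*, -1.45 (1.65) for *Oxsr1* and -0.31 (0.76) for *Cab39*, each smaller than its standard error. Without the library labelled Trf1+/+ replicate 1 they were 0.15, -1.04 and 0.16.

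*Sgk1* was the network gene whose counts were higher in every Trf1flox/flox library. It lies on chromosome 10 from 21882184 to 21999903 on the plus strand (ENSMUSG00000019970). It had 2.67, 0.829 and 61.1 normalized counts in Trf1+/+ libraries, which are 3, 1 and 62 reads, and 140, 711 and 131 in Trf1flox/flox libraries. The groups did not overlap, and a single library, Trf1flox/flox replicate 2, held most of the difference between the means of 21.5 ± 34.3 and 327 ± 333 (SD, n = 3 each). The log2 fold change was 4.99 (standard error 2.32), 4.07 with a pseudocount of 5 and 4.19 without that library. Without the library labelled Trf1+/+ replicate 1 it was 4.47. *Sgk1* passed the filter on its Trf1flox/flox libraries, with 1 of the Trf1+/+ libraries at 10 or more. It also responds to tissue dissociation, and 8 of 10 immediate early and heat shock genes had a row. Their sums were 1161, 1312 and 526 in Trf1+/+ libraries, and 756, 0 and 335 in Trf1flox/flox libraries, and the 0 belongs to the library with the most *Sgk1*. The part of dissociation in the *Sgk1* counts was not tested. *Nedd4l* (chromosome 18, 64887705 to 65217828, plus strand) had 24.9, 134 and 442 in Trf1+/+ libraries, and 935, 603 and 366 in Trf1flox/flox libraries. The groups overlapped by Trf1+/+ replicate 3, and the log2 fold change of 2.35 (standard error 1.15) was 1.27 without the library labelled Trf1+/+ replicate 1. Its exons overlap those of the antisense gene *A330084C13Rik*, whose reads cannot be told apart there.

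**Figure D1:**
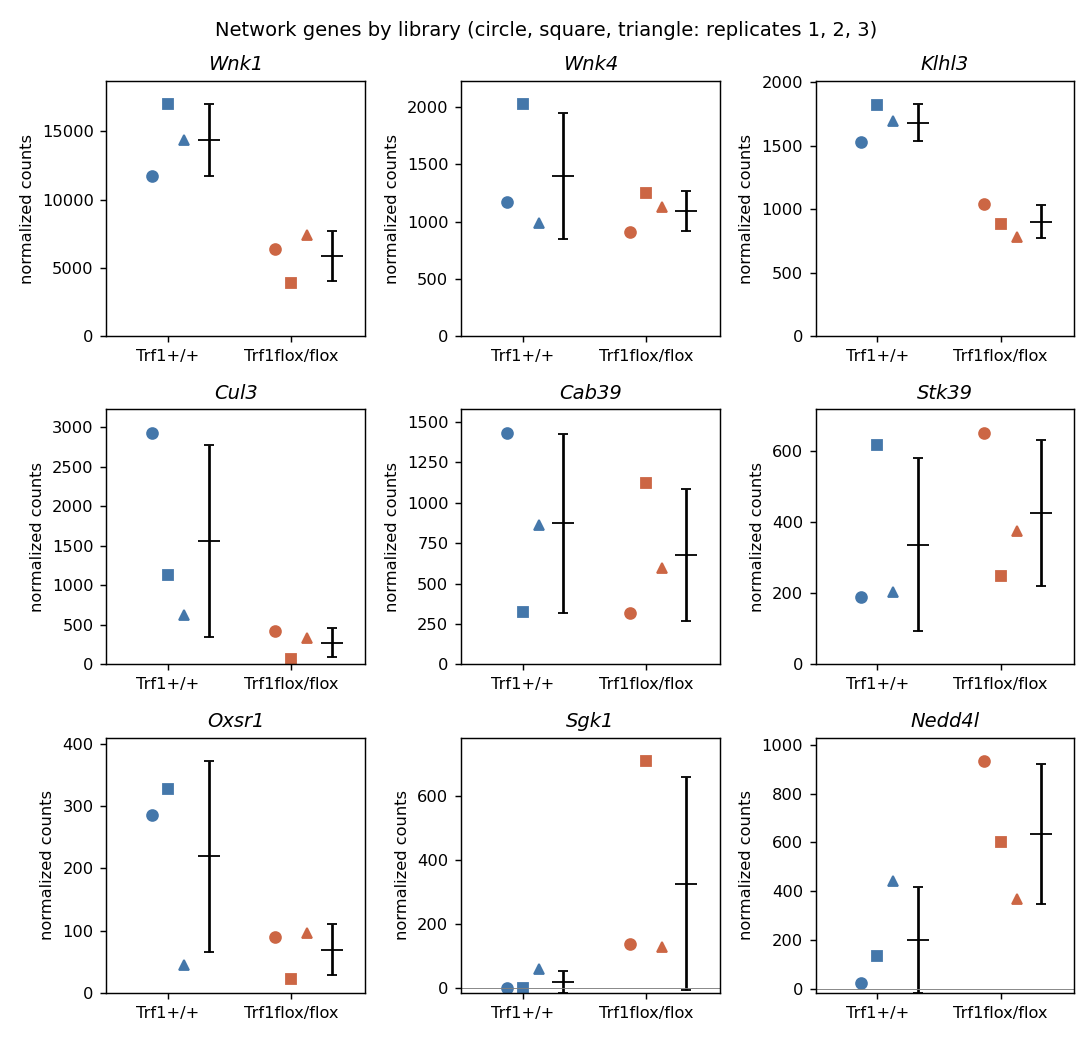
Normalized counts (vertical axis, starting at 0 except where an error bar reaches below it) of the 9 network genes in the 3 Trf1+/+ (blue) and 3 Trf1flox/flox (orange) libraries, with circles, squares and triangles for replicates 1, 2 and 3 and black lines for the group mean ± SD. The groups do not overlap for *Wnk1*, *Klhl3* and *Cul3*, lower in Trf1flox/flox, and for *Sgk1*, higher in Trf1flox/flox, and *Klhl3* turns to 0.15 (log2) if libraries are scaled to the distal convoluted tubule markers.

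Over the network, 3 genes were lower and 1 was higher in Trf1flox/flox mice with no overlap between groups. Among all 9966 tested genes 3.33% were lower and 5.35% were higher in this way. *Wnk1* and *Cul3* chose the network, so nothing is read from this count. Without the library labelled Trf1+/+ replicate 1 the counts were again 3 lower and 1 higher, while the shares over all tested genes became 8.74% and 9.15%, since fewer libraries overlap less often. In limma 0% of the tested genes (0 of 9966) had an adjusted p under 0.05, and 312 genes (3.13%) had an unadjusted p under 0.05. The adjusted p of the 7 network genes other than *Wnk1* and *Cul3* lay between 0.970 and 0.985 (limma with Benjamini-Hochberg adjustment over all tested genes). DESeq2 on the recovered reads called 0.617% of the genes it tested (58 of 9407), and edgeR called 0. None of these 7 genes thus passed the test over all genes, and the groups of *Klhl3* and *Sgk1* nevertheless did not overlap.

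**Figure D2:**
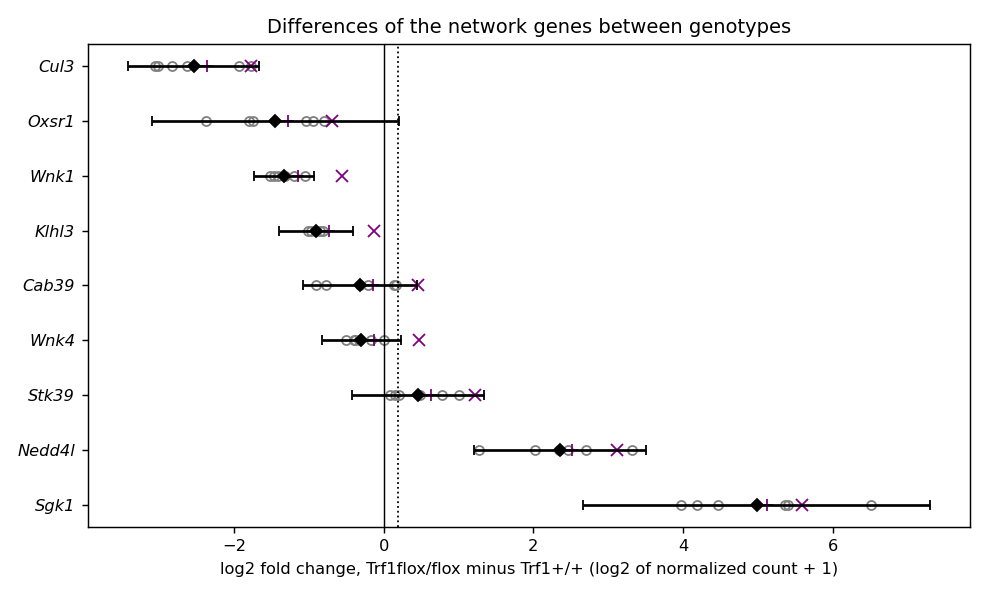
Log2 fold change (Trf1flox/flox minus Trf1+/+, horizontal axis) of each network gene, with diamonds and bars for the value and its standard error from limma, grey circles for the fits that leave out 1 library, purple plus signs for upper quartile scaling and purple crosses for scaling to *Slc12a3*. The dotted line is the median of all tested genes at 0.20, and *Wnk1* lies between -1.52 and -1.05 with 1 library left out and at -0.55 after scaling to *Slc12a3*.

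Compared per kilobase of annotated exon, the network genes formed a steep order of levels. In Trf1+/+ cells *Wnk1* was at 629 ± 115 normalized counts per kilobase (SD, n = 3), followed by *Wnk4* at 337 ± 133, *Cul3* at 320 ± 248.9 and *Klhl3* at 230 ± 19.8. *Cab39* (123 ± 78.1), *Stk39* (67.8 ± 49.1), *Oxsr1* (41.0 ± 28.6), *Nedd4l* (11.4 ± 12.3) and *Sgk1* (4.39 ± 6.99) lay lower. Between neighbours in this order the library values did not overlap from *Wnk1* to *Wnk4* and from *Klhl3* to *Cab39*, and they overlapped elsewhere. In Trf1flox/flox cells *Wnk4* (263 ± 41.7) and *Wnk1* (257 ± 79.9) overlapped at the top. *Klhl3* (123 ± 17.5), *Cab39* (95.6 ± 57.7), *Stk39* (85.7 ± 41.4), *Sgk1* (66.8 ± 67.8), *Cul3* (56.4 ± 36.8), *Nedd4l* (35.9 ± 16.2) and *Oxsr1* (13.01 ± 7.58) followed. Neighbours in this second order did not overlap from *Wnk1* to *Klhl3* and from *Nedd4l* to *Oxsr1*. The place of *Cul3* in the Trf1+/+ order rested on the library labelled replicate 1, without which its mean was 179, below *Klhl3* at 240.2 and *Wnk4* at 364. The lengths are those of all annotated exons of a gene, and the cells may use fewer of them.

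The target of the network, *Slc12a3* (chromosome 8, 94329201 to 94366214, plus strand), was lower in Trf1flox/flox libraries too. It had 26373, 35066 and 25899 normalized counts in Trf1+/+ libraries, and 17956, 14271 and 18752 in Trf1flox/flox libraries. The groups did not overlap, and the log2 fold change was -0.77 (standard error 0.36, adjusted p = 0.970 from limma). *Slc12a3* encodes NCC, the defining transporter of the distal convoluted tubule. The markers of this segment summed to 62168, 60505 and 41074 in Trf1+/+ libraries, and to 32594, 17265 and 30275 in Trf1flox/flox libraries. Of the 5 markers 2, *Slc12a3* and *Calb1*, were lower without overlap, and the groups of the other markers overlapped. These 2 genes held most of the sum, with means of 29112 and 18423 in Trf1+/+ libraries, so the sum mostly restates them. The summed groups did not overlap either (means 54583 ± 11728 and 26711 ± 8263, SD, n = 3 each). An exact two-sided permutation test gave p = 0.1, the smallest that 3 libraries against 3 allow. Groups of 3 that do not overlap always give this value, so the test adds nothing to the lack of overlap. In libraries of pooled cells, fewer cells of a type and less RNA per cell cannot be told apart. The part of this segment in the differences of *Wnk1*, *Cul3* and *Klhl3* was not tested, and ratios within a library are given for these genes instead.

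As a percent of *Slc12a3* in the same library, *Klhl3* had nearly the same values in both groups. It was at 5.81%, 5.19% and 6.56% in Trf1+/+ cells and at 5.78%, 6.21% and 4.17% in Trf1flox/flox cells, so that the groups overlapped. *Wnk1* was at 44.4%, 48.5% and 55.4% in Trf1+/+ cells and at 35.5%, 27.0% and 39.4% in Trf1flox/flox cells. The *Wnk1* groups did not overlap, and the gap between them was narrower than for the normalized counts. *Cul3* was at 11.1%, 3.22% and 2.39% and at 2.34%, 0.521% and 1.75%, without overlap but with a gap smaller than the spread within either group. *Wnk1* and *Cul3* were used to choose the network, so their ratios are descriptions. *Wnk4* was at 4.44%, 5.77% and 3.83% and at 5.04%, 8.74% and 5.99%, and its groups overlapped. *Stk39* was at 0.713%, 1.76% and 0.784% and at 3.62%, 1.75% and 1.999%, also with overlap. After scaling all libraries to *Slc12a3* the log2 fold change was -0.55 for *Wnk1*, -0.13 for *Klhl3* and 0.48 for *Wnk4*, while the median over all tested genes moved from 0.20 to 0.92.

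**Figure D3:**
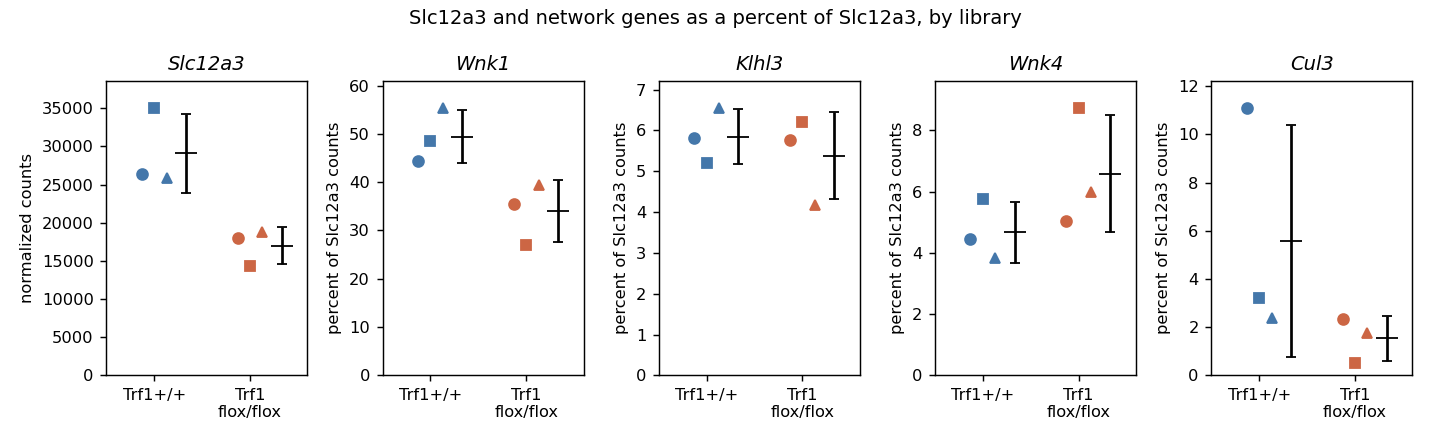
Normalized counts of *Slc12a3* (left panel) and *Wnk1*, *Klhl3*, *Wnk4* and *Cul3* as a percent of *Slc12a3* in the same library (other panels), for Trf1+/+ (blue) and Trf1flox/flox (orange) libraries, with circles, squares and triangles for replicates 1, 2 and 3, black lines for the mean ± SD and all axes starting at 0. The groups overlap for *Klhl3* and *Wnk4* and do not overlap for *Wnk1* (44.4% to 55.4% against 27.0% to 39.4%) or *Cul3*.

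The genes whose log2 values were most like those of *Wnk1* over the 6 libraries were *Tfdp1* (Pearson's r = 0.983), *Gm44120* (0.977), *Slc12a3* (0.974), *Vmn1r88* (0.974) and *Slc4a2* (0.970). *Tfdp1* encodes a partner of E2F transcription factors, and *Slc4a2* encodes an anion exchanger. *Slc12a3*, the transporter that WNK signalling activates, ranked 3 among all tested genes. Its highest and lowest libraries, Trf1+/+ replicate 2 and Trf1flox/flox replicate 2, were those of *Wnk1*. Of the network genes *Klhl3* ranked 71 (r = 0.877), *Cul3* 197 (0.820), *Oxsr1* 740 (0.671) and *Wnk4* 2130 (0.399). *Stk39* (0.00), *Cab39* (-0.17), *Nedd4l* (-0.55) and *Sgk1* (-0.85) were further down the order. Those most like *Cul3* were *Gabpb2* (0.997), *Fxr2* (0.995), *Ubp1* (0.992), *Commd7* (0.988) and *Gm2011* (0.987). *Gabpb2* encodes a subunit of the GABP transcription factor, *Fxr2* an RNA-binding protein and *Commd7* a COMM domain protein. *Slc12a3* ranked 492 for *Cul3* (0.824), so the genes that head each order differ between *Wnk1* and *Cul3*. The 10 genes named as most like either were all lower in Trf1flox/flox libraries without overlap, and a correlation over 6 libraries of these groups mostly restates the difference between groups. The values are descriptions over libraries that share their scaling.

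A wider list of 62 pathway genes was examined around the network, of which 60 had a row and 55 passed the filter. Of these 31 were higher and 24 were lower in Trf1flox/flox mice. The median log2 fold change of the list was 0.25 against 0.20 over all tested genes, of which 55.9% were higher. No gene of the list passed an adjusted p of 0.05 in limma, and 1 had an unadjusted p under 0.05. Without overlap between groups, 3 were lower (*Slc12a3*, *Sgk2* and *Mtor*) and 3 were higher (*Slc12a2*, *Mapkap1* and *Cul5*). The share of 10.9% without overlap was near the 8.68% of all tested genes. When the library labelled Trf1+/+ replicate 1 was left out, the median of the list was -0.07 and that of all tested genes -0.02, with 5 genes lower (9.09%) and 4 higher (7.27%) without overlap. Over all tested genes these shares were then 8.74% and 9.15%.

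Of the 9 other kinases, scaffolds and regulators of the WNK-SPAK pathway 7 were tested, with 4 higher, 3 lower and a median of 0.45. *Cab39l*, which encodes the second MO25 protein, had 738, 1191 and 715 normalized counts in Trf1+/+ libraries, and 1537, 1520 and 685 in Trf1flox/flox libraries. *Tsc22d1*, whose family includes partners of WNK kinases, had 4368, 3937 and 1761 and then 2480, 3066 and 3129. Both overlapped between groups.

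Of the cation-chloride cotransporters 5 of 7 were tested, with 3 higher and 2 lower. *Slc12a1*, which encodes NKCC2 of the loop of Henle, had 1641, 11080 and 7646 normalized counts in Trf1+/+ libraries, and 26372, 12964 and 4250 in Trf1flox/flox libraries, with overlap. *Slc12a2*, which encodes the widely expressed NKCC1, had 2.67, 3.31 and 173 in Trf1+/+ libraries, and 213, 425 and 274 in Trf1flox/flox libraries. The *Slc12a2* groups did not overlap, and its log2 fold change was 4.38 (standard error 2.13). Its values of 2.67 and 3.31 are a few reads each, and the size of the fold change rests on them. Like *Sgk1*, it passed the filter on its Trf1flox/flox libraries. The 6 chloride and potassium channel genes had 5 higher and 1 lower. *Kcnj1* (ROMK) had 8284, 6672 and 4936 and then 9958, 5160 and 3196, with overlap.

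On the side of the mineralocorticoid receptor, ENaC and SGK kinases 11 of 14 genes were tested, with 7 higher and 4 lower. *Mtor*, the kinase of the complex that activates SGK1, had 929, 369 and 1551 normalized counts in Trf1+/+ libraries, and 100.53, 179 and 277 in Trf1flox/flox libraries. Its groups did not overlap, and its log2 fold change was -2.24 (standard error 0.87, adjusted p = 0.970 from limma). *Mapkap1*, which encodes the SIN1 subunit of the same complex, was higher without overlap, with 7.13, 56.3 and 179 and then 243, 457 and 285. *Sgk2* had 2637, 1118 and 1511 in Trf1+/+ libraries, and 930, 1000 and 859 in Trf1flox/flox libraries, so it was lower without overlap where *Sgk1* was higher. *Nedd4*, the relative of *Nedd4l*, had 681, 1258 and 907 and then 1833, 718 and 1081, with overlap.

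Among the partners of CUL3, which are its other adaptors, RBX1, CAND1 and the enzymes that attach NEDD8, all 10 were tested, with 6 higher, 4 lower and a median of 0.43. *Rbx1*, the RING subunit that every CUL3 ligase needs, had 3780, 2117 and 1948 normalized counts in Trf1+/+ libraries, and 2430, 1863 and 3197 in Trf1flox/flox libraries. *Nedd8*, which encodes the modifier that activates cullins, had 1140, 2066 and 1047 and then 1543, 1802 and 2109. Neither was separated by genotype as *Cul3* was. The 9 genes of the COP9 signalosome, which removes NEDD8 from cullins, had 3 higher, 6 lower and a median of -0.47. *Cops2* had 2675, 1187 and 700 and then 376, 945 and 923, and *Cops6* had 2050, 902 and 1722 and then 1516, 1741 and 1586, with overlap in both. Of the 7 other cullins 3 were higher and 4 were lower. *Cul1* had 892, 196 and 912 and then 662, 1035 and 588, and *Cul4a* had 846, 128 and 606 and then 181, 851 and 303, again with overlap. *Cul5* had 214, 283 and 213 in Trf1+/+ libraries, and 853, 626 and 427 in Trf1flox/flox libraries, and its groups did not overlap (log2 fold change 1.38, standard error 0.77). No cullin other than *Cul3* was lower in all Trf1flox/flox libraries, and *Cul3* was chosen for being so. *Cul7* and *Cul9* had log2 fold changes of -3.22 (standard error 2.33) and -2.72 (2.11), with overlap. Both were more negative than the -2.54 of *Cul3*, so a lower level was not particular to *Cul3*.

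**Figure D4:**
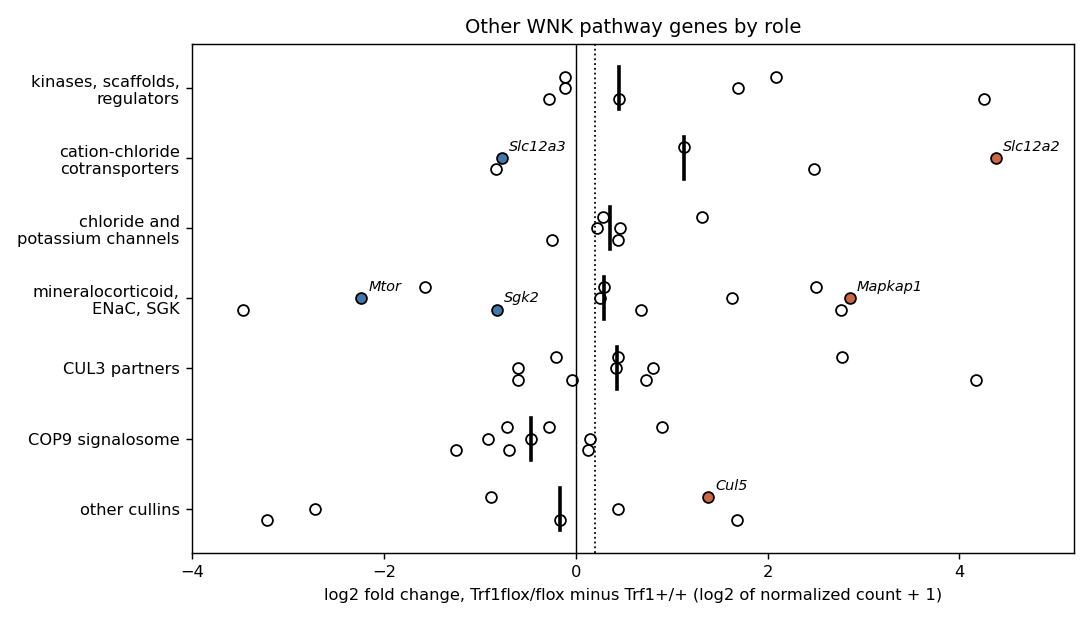
Log2 fold change (Trf1flox/flox minus Trf1+/+, horizontal axis) of the 55 tested genes of the wider pathway list, grouped by role on the vertical axis. Blue and orange points are genes lower or higher in Trf1flox/flox libraries without overlap between groups, white points overlap, black bars are the median of a role, and the dotted line is the median of all tested genes at 0.20, while the lowest median of a role is that of the COP9 signalosome at -0.47.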

How the data were processed

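Libraries were made by the authors from sorted cells with oligo(dT) priming, template switching and PCR, without strand or molecular identifiers. According to the study's methods and the submitters' processing notes, reads were aligned to GRCm38 (GENCODE vM20; the notes list GRCm39) with TopHat2 2.0.10, Bowtie 1.0.0 and SAMtools 0.1.19 and counted per gene with HTSeq 0.6.1. The authors deposited normalized counts, a signal in which each gene's read count is divided by 1 size factor per library. All values (100%, within 0.1 read) were whole multiples of 1 read, so reads were recovered for the count tests. The SDs given are of the spread between libraries and not of counting error alone. The standard errors are limma's moderated ones. They combine a gene's own spread between libraries with that of all tested genes, so they can differ from its own spread.

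Log2 of the normalized count plus 1 was compared between genotypes with limma 3.58.1 (R 4.3.3, variance trend, two-sided, Benjamini-Hochberg adjustment) over the 9966 genes with 10 or more normalized counts in 3 or more of the 6 libraries. This fit was tested on simulated counts whose spread was set beforehand and not taken from these libraries. The simulation therefore does not show how the fit performs on them. edgeR 4.0.16 and DESeq2 1.42.0 on recovered reads, other pseudocounts (0.5 and 5), filters and scalings, and leaving out each library were alternatives. The test of the distal tubule sum was an exact permutation test. The network genes and lists were chosen with earlier results of these data known. Named genes were the 9 network genes, and, for each role of the wider list, those with an unadjusted p under 0.05 or groups without overlap and the 2 with the highest mean. A gene that this rule names is not reported here. The 5 genes most correlated with *Wnk1* and with *Cul3*, *Terf1* and marker genes were also named. *Calb1*, *Dcn*, *Gsn*, *Cul7* and *Cul9* were named after their values were seen. Coordinates are from GENCODE vM21 on GRCm38, and promoters are from RefSeq. P-values rest on the spread between these libraries of single mice, which limma moderates over genes.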

Additional observations from a re-analysis of the deposited data

How the results depend on the processing

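Over 15 alternatives, 14 gave 0 genes with an adjusted p under 0.05, and DESeq2 on recovered reads gave 58; edgeR gave 0, with 196 at an unadjusted p under 0.05. No network gene other than *Wnk1* and *Cul3*, for which no test is given, passed in any of them. Scaling to *Slc12a3* and to the distal convoluted tubule markers was chosen after seeing the data. The log2 fold change of *Wnk1* was -0.55 and -0.26 under these 2 scalings, that of *Wnk4* turned to 0.48 and 0.76, that of *Cab39* to 0.46 and 0.75, and that of *Klhl3* was 0.15 under the second. By their construction these scalings moved the median of all tested genes to 0.92 and 1.18, and that of the wider pathway list to 0.99 and 1.27. With edgeR and DESeq2 the median of the list was -0.11 and -0.10, and the cause was not tested. With 1 library left out it lay between -0.068 and 0.42, the lowest being without the library labelled Trf1+/+ replicate 1, and the median of all tested genes between -0.02 and 0.31; the count of called genes was 0 in each.

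With 1 library left out, *Wnk1* lay between -1.52 and -1.05, *Cul3* between -3.06 and -1.77, *Klhl3* between -1.01 and -0.81, *Sgk1* between 3.97 and 6.51, *Nedd4l* between 1.27 and 3.32, *Oxsr1* between -2.37 and -0.79, *Stk39* between 0.09 and 1.01, *Wnk4* between -0.51 and 0.0066 and *Cab39* between -0.90 and 0.16. *Wnk4* turned without Trf1+/+ replicate 2 (0.0066). *Cab39* turned without Trf1+/+ replicate 1 (0.16) and without Trf1flox/flox replicate 1 (0.14). No paired analysis was made, since no label pairs mice of the groups.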
